A study of Mus musculus with 3 samples.

Results

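The common gamma chain cytokine family was described here by 10 genes, 4 cytokines (Il2, Il7, Il15 and Il21) and 6 receptor chains (Il2ra, Il2rb, Il2rg, Il7r, Il15ra and Il21r), chosen by name from a table of 53342 genes. All 10 were found once each and all 10 passed the expression filter. Bulk RNA sequencing counts came from the lungs of 3 male C57Bl/6 mice, called mouse 4, 5 and 6 after the last digit of their labels, with no age given. Every mouse had received microparticles made from Mycobacterium abscessus into the trachea (50 µL, equal to 1000000 bacteria), a challenge meant to form lung granulomas as a model of sarcoidosis. MIA-602, which blocks the receptor for growth hormone-releasing hormone, was then injected under the skin of every mouse each day for 3 weeks at 5 µg. The mice form 1 group, and neither unchallenged nor untreated mice were analysed here. No value below therefore measures what either agent does. The comparisons are between genes within a mouse and between the mice.

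The common gamma chain, the product of Il2rg, is a receptor subunit shared by the receptors for several interleukins that control the growth and survival of lymphocytes. Each receptor pairs it with chains of its own, and the paired tails bring the kinases JAK1 and JAK3 together, which then activate STAT transcription factors. Il2 is made mainly by activated T cells and feeds effector and regulatory T cells, Il7 is made by stromal and epithelial cells and keeps naive and memory T cells alive, Il15 is presented on the Il15ra chain to NK cells and memory T cells, and Il21 is made by helper T cells and acts on B cells and T cells. In the lung such signals reach both circulating lymphocytes and those resident in tissue.

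Promoter stretches of 3 members are printed because these genes stand at the ends of the order of levels given further on: Il2rg, the highest member, and Il2 and Il21, the lowest. Each runs 5′ to 3′ over the 250 bases before the annotated start, from RefSeq on build GRCm38.p6, which held an entry for 7 of the 10 members and none for Il7, Il15 or Il2rb. The stretches lie on the minus strand at chr3:37125955-37126204 for Il2, chr3:37232637-37232886 for Il21 and chrX:101268256-101268505 for Il2rg. Capitals mark 3 motifs chosen after the sequences had been read and searched on both strands: the core GGAAAA bound by NFAT factors (read as TTTTCC on the other strand), the core CCGGAA bound by ETS factors (read as TTCCGG on the other strand) and the TATA box TATAAA (read as TTTATA on the other strand).
Il2: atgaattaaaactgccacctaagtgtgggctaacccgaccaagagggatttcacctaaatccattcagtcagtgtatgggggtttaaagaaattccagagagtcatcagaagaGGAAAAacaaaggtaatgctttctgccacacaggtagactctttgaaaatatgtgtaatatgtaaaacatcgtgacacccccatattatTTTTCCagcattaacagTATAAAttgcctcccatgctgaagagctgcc
Il21: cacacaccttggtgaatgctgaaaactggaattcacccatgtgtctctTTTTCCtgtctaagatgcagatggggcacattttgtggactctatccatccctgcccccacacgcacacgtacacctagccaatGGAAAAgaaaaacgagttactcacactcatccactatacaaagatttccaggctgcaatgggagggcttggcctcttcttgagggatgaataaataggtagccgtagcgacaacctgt
Il2rg: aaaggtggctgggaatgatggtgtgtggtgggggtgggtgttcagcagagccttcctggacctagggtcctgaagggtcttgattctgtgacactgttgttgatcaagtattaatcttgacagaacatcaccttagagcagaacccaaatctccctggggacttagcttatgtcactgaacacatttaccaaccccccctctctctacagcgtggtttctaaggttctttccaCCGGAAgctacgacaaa

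The Il2 and Il21 stretches each held 2 matches to the NFAT core. At least 1 match to it was present in 20.4% of 32851 promoter windows of the same length. In Il2 the 2 matches began 137 and 48 bases before the start, and in Il21 202 and 118 bases before it. Il2 also held a TATA box 31 bases before the start (12.4% of windows), and Il2rg an ETS core 17 bases before the start (12.0% of windows). No matches overlapped. These are matches of letters and not measured binding sites.

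The total count was 43845715 in mouse 4, 35674761 in mouse 5 and 31579465 in mouse 6. Expression is reported as CPM, counts per 1000000 after scaling of the libraries, with values for mice 4, 5 and 6 in that order, or as the mean ± SD (n = 3). The lung label was matched by alveolar type 2 cell markers, all 4 of which were detected and together stood at 18601, 25870 and 23110 CPM. The 4 skeletal muscle markers summed to 4185, 1524 and 1311 CPM, so the library of mouse 4 stood apart in muscle transcripts, and whether these altered other levels was not tested. In bulk tissue, fewer cells of a type and less RNA per cell cannot be told apart.

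In CPM, 5 of the 6 receptor chains stood above every cytokine in each mouse, while Il2ra lay just below Il15. Per kilobase of exon that last gap was wider, at 1.41 ± 0.06 on the log2 scale. Counted at 1 CPM or more in every mouse, 8 of the 10 members were detected, all 6 receptor chains with Il15 and Il7, while 28.5% of all genes in the table reached that level. The median member stood at 18.1 CPM against 19.2 CPM for the median of 17636 tested genes. Il2 and Il21 were the members that missed the level, Il2 in every mouse and Il21 in mouse 5.

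**Figure D1:**
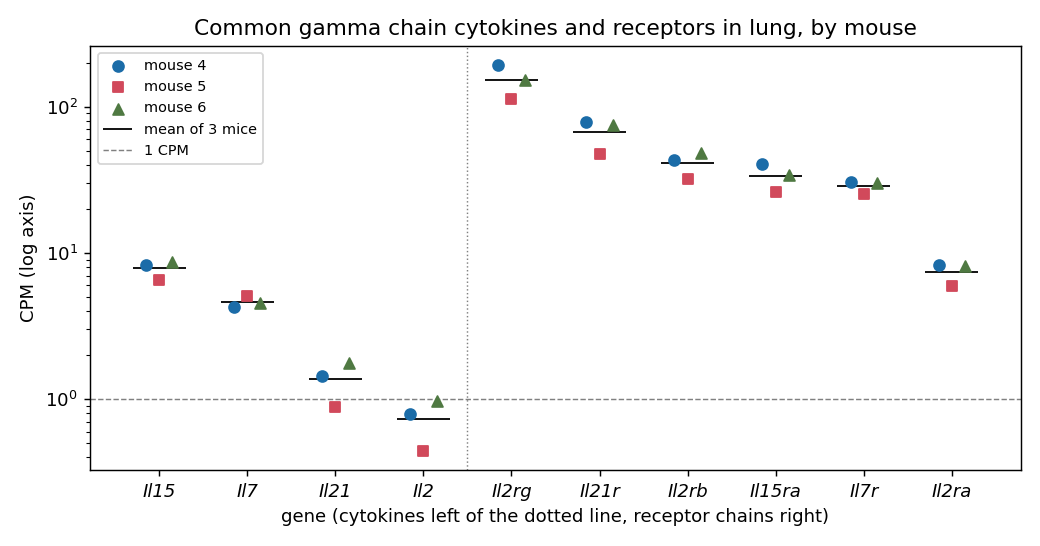
Levels of the 10 genes in CPM on a log axis, with 1 point per mouse, a bar at the mean of 3 mice and a dashed line at 1 CPM. Cytokines are on the left and receptor chains on the right; Il2rg is highest at 113 to 192 CPM and Il2 lowest at 0.442 to 0.978 CPM.

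Among the receptor chains, Il2rg (ENSMUSG00000031304, chromosome X, 101264378 to 101268255, minus strand), the shared subunit, had 8260, 4093 and 4843 counts, or 192, 113 and 153 CPM. Mouse 4 was highest and mouse 5 lowest. The mean of 153 ± 39.3 CPM was above that of 93.5% of tested genes. The exons of Il2rg share 728 bases with Gm20489 on the same strand, a locus listed with 0, 1 and 0 counts, so the counting rule used for shared exons could change this level.

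Il2rb (ENSMUSG00000068227, chromosome 15, 78479256 to 78495271), the signalling chain that the receptors for Il2 and Il15 have in common, stood at 43.0, 31.8 and 47.9 CPM. Il2ra (ENSMUSG00000026770, chromosome 2, 11642807 to 11693193), the chain that gives the Il2 receptor its high affinity and is a surface marker of regulatory and activated T cells, was the lowest receptor chain at 8.26, 5.95 and 8.10 CPM. In both genes mouse 5 lay below the other mice. Counts of Il2rb were 5.21, 5.34 and 5.91 times those of Il2ra.

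Il15ra (ENSMUSG00000023206, chromosome 2, 11705290 to 11734317) lies 12.1 kb beyond Il2ra with no protein-coding gene between them, and stood at 40.6, 25.9 and 34.2 CPM. Its product holds Il15 on the surface of the presenting cell. Il15ra followed Il2rg from mouse to mouse, and counts of Il2rg were 4.72, 4.37 and 4.46 times those of Il15ra.

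Il7r (ENSMUSG00000003882, chromosome 15, 9505788 to 9530176), the chain that binds Il7 and also forms part of the receptor for Tslp, had 30.4, 25.1 and 29.8 CPM. It varied least among the receptor chains, with a coefficient of variation of 10.1% against 17.4% to 25.7% for the other 5. Il21r (ENSMUSG00000030745, chromosome 7, 125603429 to 125633570), the receptor for Il21 on B, T and NK cells, was the receptor chain with the second highest CPM at 78.2, 47.4 and 74.8. Mouse 5 again lay apart, below both other mice.

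Of the cytokines, Il15 (ENSMUSG00000031712, chromosome 8, 82331632 to 82403222) was highest, with 358, 236 and 274 counts or 8.31, 6.53 and 8.64 CPM. Il7 (ENSMUSG00000040329, chromosome 3, 7569994 to 7613760) followed at 4.25, 5.09 and 4.57 CPM, from 183, 184 and 145 counts. Il7 was the single member with its highest value in mouse 5, but that mouse exceeded mouse 4, the lowest, by a ratio of 1.20 whose counting interval includes equality (0.971 to 1.48, exact conditional binomial, 95%). The exons of Il7 share 105 bases with Gm16685, an antisense gene that had 133, 92 and 132 counts. No source used here states whether counting was stranded, and reads of Il7 and Gm16685 cannot be told apart where they overlap.

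Il2 (ENSMUSG00000027720, chromosome 3, 37120523 to 37125959) had 34, 16 and 31 counts, or 0.789, 0.442 and 0.978 CPM. Over the summed libraries this was 0.730 CPM with an exact 95% Poisson interval of 0.580 to 0.907. Il21 (ENSMUSG00000027718, chromosome 3, 37222759 to 37232636), which lies 96.8 kb from Il2 with no protein-coding gene lying wholly between them, had 62, 32 and 56 counts, or 1.44, 0.885 and 1.77 CPM. For both genes mouse 6 was highest and mouse 5 lowest.

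Counts of Il2 were 0.548, 0.5 and 0.554 times those of Il21. These ratios lay close together, although Il2 and Il21 had the highest coefficients of variation of the 10 members, 36.9% and 32.7%. They rest on 16 to 34 counts of Il2 and 32 to 62 of Il21, and no interval was computed for them. Counts this few leave each ratio uncertain, and whether the genes vary together was not tested. The ratio of the highest to the lowest mouse was 2.21 for Il2 (interval 1.17 to 4.33) and 1.996 for Il21 (interval 1.27 to 3.18), both wide because the counts were few. Adad1, which overlaps Il2 on the other strand, had 0 counts in every mouse. The genes beyond this pair on chromosome 3 held steadier levels, with Spata5 at 12.3, 9.43 and 11.1 CPM, Nudt6 at 6.52, 6.36 and 6.31 and Bbs12 at 4.55, 4.78 and 5.36. Il21 shares 469 bases of exon with the antisense gene Gm12534, listed with 13, 0 and 8 counts, so Il21 is uncertain to that extent. Intervals cover counting error at most. They may be too narrow even for that, since reads without molecular identifiers are not independent molecules.

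Levels of different genes were compared per kilobase of exon, on a log2 scale with 0.5 counts added. Il2rg led at 5.97 ± 0.38, followed by Il21r at 4.29 ± 0.40, Il2rb at 3.23 ± 0.31, Il15ra at 2.89 ± 0.33 and Il7r at 2.60 ± 0.15. Il15 stood at 1.78 ± 0.22, above Il2ra at 0.37 ± 0.27, so that 1 cytokine outranked 1 receptor chain. Il7 at −0.29 ± 0.13, Il2 at −0.68 ± 0.58 and Il21 at −1.99 ± 0.51 came last.

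**Figure D2:**
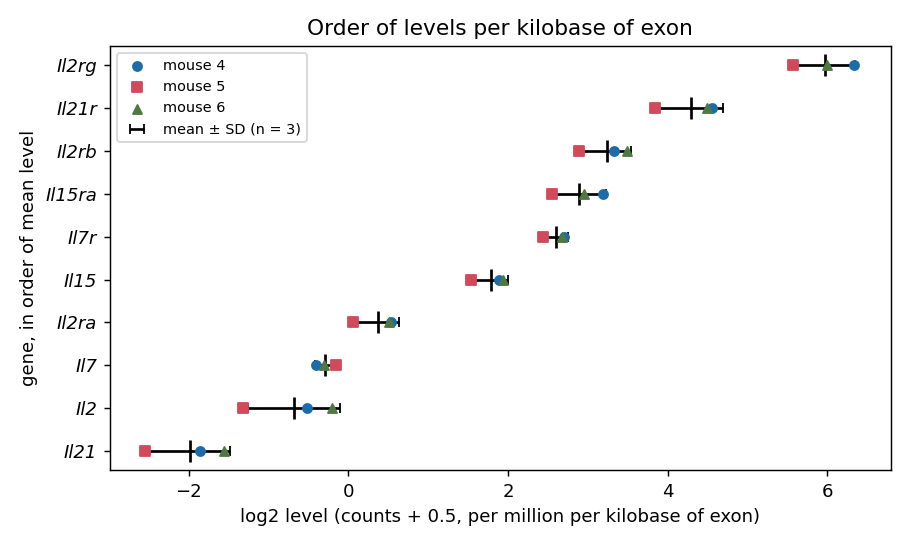
Log2 level of each gene per kilobase of exon (0.5 counts added), in order of the mean, with 1 point per mouse and a bar for the mean ± SD of 3 mice. Points of Il2rg lie to the right of all others, from 5.57 to 6.33, and those of Il7 and Il2 overlap.

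Of the 45 pairs of members, 44 kept the same order in all 3 mice. The exception was Il7 and Il2, neighbours in the order, where Il7 was higher by 0.39 ± 0.69 and higher in 2 of 3 mice. The other 8 pairs of neighbours kept their order. Their difference was less than 2 SD for Il2rb over Il15ra (0.34 ± 0.20), Il15ra over Il7r (0.29 ± 0.19) and Il2ra over Il7 (0.66 ± 0.39). With 3 mice the exact two-sided sign-flip test cannot go below p = 0.25, and it gave p = 0.25 for each of the 44 pairs (0.256 after Benjamini-Hochberg adjustment over 45) and 0.5 for Il7 and Il2, so none could pass a threshold of 0.05.

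Some places in this order depend on the gene length used. With the longest annotated transcript in place of all exons, Il15ra, which has 18 annotated transcripts, lay above Il2rb (difference of Il2rb over Il15ra −0.57). Il2 lay above Il21 by 1.31 ± 0.07 per kilobase of exon, by 0.53 with the longest transcript, and below it with no division by length (−0.89 on the log2 scale).

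Every receptor chain with a cytokine of its own lay above that cytokine in every mouse. Per kilobase, Il21r exceeded Il21 by 6.28 ± 0.20 on the log2 scale, Il7r exceeded Il7 by 2.89 ± 0.28, Il15ra exceeded Il15 by 1.11 ± 0.17 and Il2ra exceeded Il2 by 1.05 ± 0.34. The gap was widest for the Il21 pair, also with the longest transcript (5.92) and with no division by length (5.62). The places of the other pairs turn on the length used. Counts of Il2ra were 10.5, 13.4 and 8.29 times those of Il2, above the ratios of 7.15, 4.94 and 6.52 for Il7r over Il7 and of 4.89, 3.97 and 3.96 for Il15ra over Il15. With no division by length the Il2 gap was thus 3.37, against 2.61 for the Il7 pair and 2.09 for the Il15 pair. Levels of RNA are not levels of protein, and Il15 in particular is known to be held back in translation and transport.

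**Figure D3:**
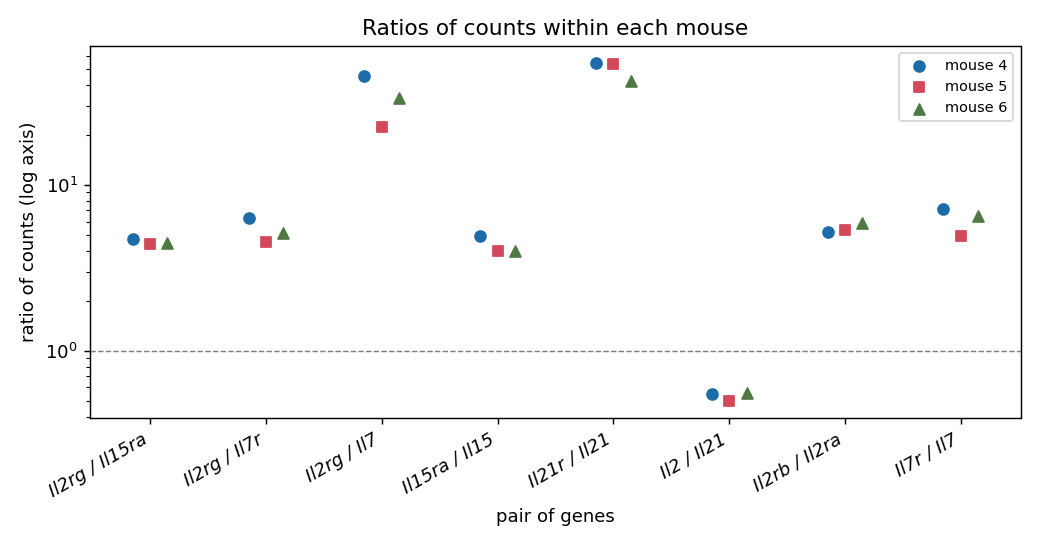
Ratio of counts for 8 pairs of genes within each mouse, on a log axis, with 1 point per mouse and a dashed line at equal counts; gene length is not taken into account. Il2 over Il21 (0.5 to 0.554, from few counts) and Il2rg over Il15ra (4.37 to 4.72) vary little. Il2rg over Il7 (22.2 to 45.1) varies most of the 8.

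Between the mice, 9 of the 10 members were lowest in mouse 5, and Il7 was lowest in mouse 4. Mouse 5 was the lowest of the 3 at 36.8% of all tested genes. This count was made after the values were seen, and it was 9 under each of 3 other scalings. The ratio of the highest to the lowest mouse ran from 1.20 (Il7) and 1.21 (Il7r) to 1.69 for Il2rg (interval 1.63 to 1.76) and 2.21 for Il2. The median range over the mice was 0.61 on the log2(CPM + 0.5) scale for the members and 0.28 for all tested genes.

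No member passed the test of spread between mice. Each gene's dispersion was set against the trend over all genes in edgeR. An adjusted p under 0.05 was reached by 0 of 10 members and by 0.0% of 17636 tested genes. The muscle marker Acta1, with a highest to lowest ratio of 3.26, still had an edgeR adjusted p of 0.837. With 3 mice this setting could call little, so 0 called in a list below does not show steady levels. The unadjusted p was under 0.05 for 2 of 10 members, Il21r and Il2rg, and for 4.92% of tested genes (867 genes). The edgeR adjusted p was 0.955 for Il21r, Il2rg, Il15ra and Il2rb, and 0.995 to 0.998 for the other 6 members. Limma also called 0 genes, and DESeq2 marked 102 genes as dispersion outliers with 0 members among them. With no expression filter, edgeR called 629 genes and 1 member, Il21r (adjusted p = 0.0244), while over the alternatives in edgeR and limma the smallest adjusted p of a member ranged from 0.0244 to 0.984. The number of members with an unadjusted p under 0.05 in edgeR turned on the mice kept. It was 2 without mouse 4 (Il21r and Il2rb, beside 1008 of 17749 tested genes), 0 without mouse 5 (886 of 18014 genes) and 3 without mouse 6 (Il15ra, Il21r and Il2rg, beside 865 of 18082 genes). With no expression filter it was 4 of 10, beside 2465 of 30751 genes.

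Markers of T cells, B cells and myeloid cells were low in mouse 5 as well. The 8 T cell markers summed to 326, 232 and 361 CPM, with 8 of 8 lowest in mouse 5, and the 5 regulatory T cell markers to 70.5, 49.0 and 73.8 CPM with 5 of 5 lowest there. The 5 B cell markers summed to 299.5, 223 and 338 CPM (5 of 5 lowest in mouse 5), the 6 macrophage and monocyte markers to 1786, 1117 and 1425 CPM (6 of 6) and the 6 dendritic cell markers to 293, 217 and 318 CPM (5 of 6). NK cell markers differed, with sums of 59.8, 71.8 and 75.4 CPM and 2 of 6 lowest in mouse 5, as did innate lymphoid cell markers at 81.7, 92.9 and 91.8 CPM (2 of 6). All markers of these 7 lists were detected in every mouse, and the part of these cells in the members' levels was not tested.

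**Figure D4:**
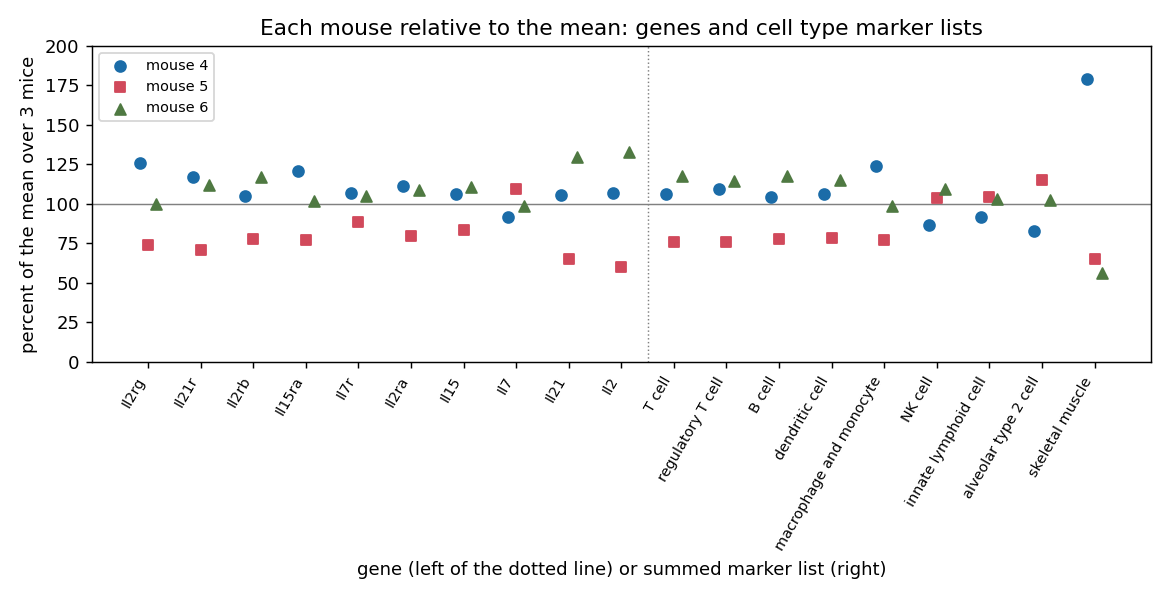
Level in each mouse as a percent of the mean of 3 mice, for the 10 genes (left) and for summed lists of cell type markers (right), with 1 point per mouse and a line at 100%. Mouse 5 is the lowest point for 9 genes and for the T cell, regulatory T cell, B cell, dendritic cell and macrophage and monocyte lists, whereas mouse 4 is highest for skeletal muscle (4185 CPM).

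Set against these sums, Il2rb kept a near constant share of the T cell, B cell and dendritic cell lists. Il2rg and Il15ra did so for the macrophage and monocyte markers. This description was made after the values were seen. Il2rb stood at 14.4%, 14.3% and 14.2% of the B cell sum, at 14.7%, 14.6% and 15.1% of the dendritic cell sum and at 13.2%, 13.7% and 13.3% of the T cell sum. All 3 sums were lowest in mouse 5 and highest in mouse 6, so the share singles out none of them. The share of Il2rb in the macrophage sum went from 2.41% to 3.36%. It was not steady in the NK cell sum either, at 71.9%, 44.2% and 63.6%. Il2rg stood at 10.7%, 10.1% and 10.7% of the macrophage sum and at 58.7%, 48.7% and 42.3% of the T cell sum. Il15ra had 2.27%, 2.32% and 2.40% of the macrophage sum and 12.4%, 11.1% and 9.48% of the T cell sum.

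Il2ra stood at 11.7%, 12.1% and 11.0% of the regulatory T cell sum, and was as steady beside the dendritic cell sum at 2.82%, 2.74% and 2.55%. As shares of the T cell sum, Il2 stood at 0.242%, 0.190% and 0.271% and Il21 at 0.441%, 0.381% and 0.489%. Both shares were lowest in mouse 5, where they rest on 16 and 32 counts. The highest share exceeded the lowest by a ratio of 1.42 for Il2 (interval 0.754 to 2.78) and 1.28 for Il21 (interval 0.818 to 2.05), and both intervals include equality. Il7 stood at 1.30%, 2.19% and 1.27% of the T cell sum, its share being highest in mouse 5, where that sum was lowest. In CPM, Il7 in mouse 5 exceeded mouse 4 by a ratio of 1.20 whose counting interval includes equality (0.971 to 1.48). Of the stromal cells known to make Il7, the 4 lymphatic endothelium markers summed to 101, 160 and 118 CPM and the 5 fibroblast markers to 1456, 1265 and 1396 CPM. Both lists were mixed. Lyve1 (49.9, 105 and 70.0 CPM) and Mmrn1 were highest in mouse 5, but Prox1 (4.11, 3.54 and 3.47 CPM) and Flt4 were highest in mouse 4. Of the fibroblast markers 3 of 5 were lowest in mouse 5, while Pdgfra was highest there (106, 127 and 93.5 CPM). The part of either in the level of Il7 was not tested. With 3 mice, such shares describe these libraries only. Of 6 thymocyte markers, listed to show any thymus in the sample, 4 lay under 1 CPM in every mouse, among them Rag1 at 6, 2 and 3 counts and Ptcra at 0. The other two, Cd1d1 (67.9, 44.4 and 61.5 CPM) and Themis (9.26, 6.83 and 8.96 CPM), are also expressed outside the thymus.

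Of the other genes of the family, the receptor chains were detected, and Il4 and Il9 were at or near 0. Il4ra, the chain for Il4, stood at 170, 147 and 168 CPM, above Il2rg in mice 5 and 6 but not in mouse 4, and below it per kilobase (27.0 ± 2.11 against 63.9 ± 16.5 CPM per kilobase). Crlf2, which pairs with Il7r to bind Tslp and does not use the common gamma chain, had 114, 75.6 and 83.5 CPM, highest in mouse 4. Il9r had 8.71, 6.00 and 9.90 CPM and Tslp, an epithelial cytokine, 3.32, 4.40 and 5.33 CPM. Il4 had 5, 1 and 0 counts, and Il9 had 0 counts in every mouse, which allows up to 0.0696, 0.0830 and 0.0946 CPM (3 counts each).

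Kinases and STAT factors that carry the signal of these receptors were detected throughout. Of the kinases and STAT factors 6 of 6 were detected, 6 of 6 were lowest in mouse 5 and 0 of 6 passed the spread test. Jak3, the kinase bound to the common gamma chain, stood at 136, 96.8 and 134 CPM, and Jak1, bound to the partner chains, at 206, 185 and 186 CPM. Per kilobase, Il2rg at 63.9 ± 16.5 CPM lay above Jak3 at 22.8 ± 4.09 and Jak1 at 26.6 ± 1.68. Of the STAT factors used by the family, Stat3 had 253 ± 18.0 CPM and Stat6 159 ± 10.4. Per kilobase their order was reversed, with Stat6 at 36.0 ± 2.35 CPM and Stat3 at 26.5 ± 1.89. The main carriers of the Il2, Il7 and Il15 signal, Stat5b and Stat5a, were lower at 70.8 ± 2.74 and 31.8 ± 3.31 CPM. Stat5a is named after its values were seen.

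Of 7 adaptor genes 7 were detected and 0 passed the spread test. Grb2, a linker to the Ras pathway, had 191 ± 24.5 CPM, the kinase subunit Pik3cd of leukocytes 126 ± 24.8 and Lck, a T cell kinase, 71.4, 53.9 and 85.1 CPM. Lck followed the T cell markers in being lowest in mouse 5 and highest in mouse 6. Of 7 feedback genes, all were detected and 0 passed. The phosphatase Ptpn6 stood at 243, 160 and 207 CPM and Socs1, an inhibitor of JAK kinases, at 82.3, 55.8 and 95.5 CPM, both lowest in mouse 5. Socs2, a gene induced by STAT5, went another way at 74.5, 96.2 and 91.6 CPM, highest in mouse 5, as did Cish, another such gene, at 46.7, 60.6 and 46.9 CPM. Cish is named after its values were seen.

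Among 12 known targets of these cytokines, 12 were detected, 9 were lowest in mouse 5 and 0 passed the spread test. The survival gene Mcl1 led at 596 ± 59.2 CPM. It was followed by the cyclin Ccnd3 at 215 ± 12.3, the kinase Pim1 at 185 ± 24.5 and the cyclin Ccnd2 at 160 ± 8.85 CPM. Per kilobase, Pim1 at 55.0 ± 7.30 CPM lay above Ccnd3 at 24.5 ± 1.40 and Ccnd2 at 17.0 ± 0.94. These genes are expressed by many cells of the lung. Of 7 regulators of Il7r, 6 were detected, led by Klf2 at 241 ± 11.3 and Ets1 at 156 ± 4.88 CPM, and 2 of 7 were lowest in mouse 5.

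All 4 listed regulators of Il15 were detected and all 4 were lowest in mouse 5. Irf1, a factor induced by interferon that acts on Il15, stood at 442, 360 and 503 CPM and Batf3 at 15.1, 10.3 and 18.6 CPM. Both were highest in mouse 6, whereas Nfkb1 (146, 124 and 134 CPM) and Rela (163, 144 and 155 CPM) were highest in mouse 4. Il15 itself, at 8.31, 6.53 and 8.64 CPM, differed little between mice 4 and 6. A link of any of them to the level of Il15 was not tested. Of 7 genes of follicular helper T cells and the Il21 response, 7 were detected and 6 were lowest in mouse 5, among them Icos, a costimulator, at 22.6, 16.2 and 22.5 CPM and Cxcr5, the homing receptor of B cell follicles, at 19.6, 13.1 and 20.9 CPM. None of the genes of these 3 lists passed the spread test in edgeR.

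The genes with the pattern over the mice closest to that of a member were found by distance on the mouse-centred log2(CPM + 0.5) scale. For Il2rg these were Grina, Igkv5-43 and Slc2a6 (root mean square distance 0.00431 to 0.00748), for Il15ra Tpx2, ENSMUSG00000097769 and Slc29a2 (0.0015 to 0.00429), for Il15 Ltc4s, Gm4824 and Grk2 (0.00264 to 0.00415) and for Il7r Rps25-ps1, Catsper2 and Plekhm2 (0.014 to 0.0167). Il7r itself had a log2 range of 0.27, under the 0.3 asked of the genes compared, so genes as flat as Il7r were not among those searched. The measure rests on 3 samples, and 92, 187, 446 and 276 genes lay within 0.05 of Il2rg, Il15ra, Il15 and Il7r, so many genes share each pattern.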

How the data were processed

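The authors deposited unnormalized read counts for each Ensembl gene in every mouse. Per the labels' protocols, total RNA was made into libraries with a Nugen Universal mRNA kit. STAR 2.5.2a, Trim Galore 0.6.2, bcl2fastq 2.17 and build mm10 are listed in the submitters' processing notes. How reads were assigned to genes, with which annotation and strand setting, is not given in the sources used here. Symbols, coordinates (1-based) and exon lengths came from GENCODE M21 (GRCm38), which matched 53237 of 53342 genes.

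Counts were scaled with TMM factors in edgeR 4.0.16 (R 4.3.3). Spread between mice was tested on 17636 genes kept by filterByExpr, with an intercept alone, the older quasi-likelihood fit and robust empirical Bayes. Each residual quasi-dispersion was set against the trend by an upper-tail F test (prior degrees of freedom 3.88) and adjusted by Benjamini-Hochberg over all tested genes. The script was tested on simulated counts with every dispersion on the trend. No result here rests on that test. Limma 3.58.1 and DESeq2 1.42.0 were alternatives, with other scalings, filters, lengths and added counts and each mouse left out. Python 3.11.15 and scipy 1.17.1 gave levels, exact tests and intervals.

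Named are all members, every gene of the list of other family genes, and up to 5 of the most abundant genes of each further list, unless stated. For Il2rg, Il7r, Il15 and Il15ra the 3 nearest genes in pattern are named, among tested genes with a log2 range of at least 0.3. Members and lists were chosen with earlier results of these data known. One gene of the kinase and regulator lists is not reported here, and counts leave it out. That the mice are separate animals comes from their labels.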

Additional observations from a re-analysis of the deposited data

How the results depend on the processing

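The 60 mean levels under other scalings or without a mouse all moved by less than the SD between mice. For those without a mouse this was fixed in advance, since leaving out 1 of 3 values cannot move a mean by its SD. Only the other scalings could have given another outcome. The number of detected members was 8 to 9 throughout, and the number of pairs in the same order 44 to 45. Leaving a mouse out could only keep or raise either count. Under every scaling, 9 members were lowest in mouse 5. Genes called for spread numbered 0 in edgeR, 629 with no expression filter, 102 as DESeq2 dispersion outliers and 0 to 13 with a mouse left out (13 without mouse 4). Members called numbered 0, except 1 with no filter, and 0 with any mouse left out. Of 119 recomputed differences between members, 94 moved by less than their SD, 23 by more and 2 reversed: Il2rb over Il15ra with the longest transcript (−0.57) and Il2 over Il21 with no division by length (−0.89). The 23 and the 2 all came with another gene length. Leaving a mouse out could not move a difference by its SD, so those settings do not bear on how steady the differences are. The cause of the change in spread calls was not tested. No paired comparison of groups was possible because there is 1 group, and pairing within a mouse was used only between genes. The number of mice limits every test, and few counts limit Il2 and Il21.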
